A study of Mus musculus with 24 samples.

Results

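Set against 4 libraries of AML-12 cells given only the albumin carrier (BSA), 497 of the 14232 genes tested differed in the same direction in all 4 groups of palmitate-treated cells that had been transfected with esiRNA. Of these 497 genes, 182 were higher and 315 were lower than in BSA, that is 1.28% and 2.21% of the genes tested. A gene was counted when the DESeq2 Wald test of each of the 4 groups against BSA gave an adjusted p (*Padj*) below 0.1 and the 4 log2 fold changes had the same sign. Genes of acute phase proteins, chemokines and complement C3 were among those with the largest falls, and the genes with the largest rises belonged to the interferon response. Acute phase proteins such as serum amyloid A3 (*Saa3*), lipocalin 2 (*Lcn2*) and haptoglobin (*Hp*) were lower in every transfected library than in every BSA library. Among the 10 largest falls and 10 largest rises that did not overlap with BSA, the 10 rises and 5 of the falls also differed among the 4 transfected groups.

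Hepatocytes answer interleukin-6, interleukin-1 and tumor necrosis factor by making acute phase proteins and chemokines, a response driven by transcription factors of the C/EBP, STAT3 and NF-kB families. Nucleic acids that enter the cell, among them double-stranded RNA, are sensed by cytosolic and endosomal receptors that induce interferons and a large set of interferon-stimulated genes, read at promoter sequences known as interferon-stimulated response elements (ISRE). Saturated fatty acids such as palmitate are oxidized in mitochondria and peroxisomes, stored in lipid droplets coated by perilipins, and activate the nuclear receptor PPARα.

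The RNA was sequenced from the 3′ end in pooled, barcoded libraries. AML-12 is an established mouse hepatocyte line that carries a transforming growth factor-α transgene. All cells were kept without dexamethasone in charcoal-treated serum. BSA cells received the albumin carrier with neither palmitate nor esiRNA. The other 4 groups received 0.25 mM palmitate for 48 hours and, for the last 24 hours, endoribonuclease-prepared siRNA (esiRNA) with lipofectamine: 200 nM against *Egfp*, a gene these cells lack (CON), 100 nM against *Bmal1* (BMAL1), 100 nM against *Chrebp* (CHREBP), or both of these at 200 nM in all (BOTH). Each group had 4 libraries. The 4 palmitate libraries without transfection were not used here. Because BSA cells had neither palmitate nor transfection, the share of either in any difference from BSA cannot be told apart. The library positions in the labels gave column 1 to BSA, column 2 to CON and BMAL1, and column 3 to the remaining groups, so position cannot be told apart from the comparison either. The 4 comparisons also share the same BSA libraries, and membership of the 497 is therefore not 4 independent observations. The joint *Padj* given below for a member, from the mean of the 4 group coefficients, uses the same contrast and is a description of its precision. The likelihood ratio test among the 16 transfected libraries does not use BSA. Among these libraries, position cannot be told apart from the *Chrebp* esiRNA, since column 3 held CHREBP and BOTH. The esiRNA dose also differed, at 200 nM in CON and BOTH and 100 nM in BMAL1 and CHREBP.

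The libraries held 5399700 to 8780183 gene counts in BSA and 5570803 to 11237474 in the transfected groups. At these depths 3 counts, taken as the floor, corresponded to 0.267 to 0.556 CPM (counts per 1000000 gene counts). Reads that did not align made up 27.2 to 28% in BSA and 24.9 to 27.5% in the transfected libraries, and mitochondrial genes 3.66 to 4.19% and 1.95 to 3.87% of gene counts. The lowest mitochondrial share, 1.95%, was that of BOTH replicate 4, without which the shared genes numbered 208 higher and 352 lower. Among markers of other liver cell types, *Adgre1*, *Clec4f*, *Cd5l*, *Marco* and *Tyrobp* of macrophages, *Cdh5*, *Stab2*, *Kdr*, *Tek* and *Lyve1* of endothelium, and *Mpo*, *Elane* and *Cxcr2* of neutrophils were at 0 in all 20 libraries. These were 5 of 10 listed macrophage, 5 of 7 endothelial and 3 of 6 neutrophil markers, and the others had counts. For example, *Cd68* of macrophages had a mean normalized count of 12.7 and *S100a8* of neutrophils one of 4.87.

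The genes named by the esiRNAs were examined first as a check of the labels. *Arntl* encodes BMAL1, the activator at the core of the circadian clock. Its normalized counts were 46.6, 42.9, 60.1 and 48.5 in BSA, 57.9, 49.7, 42.4 and 30.4 in CON, 23.3, 22.5, 26.1 and 33.2 in BMAL1, 33.5, 44.2, 29.2 and 35.7 in CHREBP, and 16.7, 31.1, 25.6 and 18.4 in BOTH. All BMAL1 and BOTH libraries lay below all BSA libraries, while the CON libraries overlapped them. Against BSA the log2 fold changes were -0.12 in CON (*Padj* = 0.851), -0.90 in BMAL1 (*Padj* = 0.0161), -0.47 in CHREBP (*Padj* = 0.259) and -1.10 in BOTH (*Padj* = 0.000629). *Mlxipl* encodes CHREBP, a glucose-sensing activator of glycolytic and lipogenic genes. It measured 49.2, 68.2, 81.0 and 42.8 in BSA, 38.9, 30.6, 44.8 and 29.2 in CON, 47.9, 31.1, 28.0 and 35.1 in BMAL1, 23.4, 32.9, 22.3 and 25.7 in CHREBP, and 14.5, 20.5, 22.1 and 11.6 in BOTH. *Mlxipl* was lower than in BSA in all 4 groups, CON and BMAL1 included, by log2 fold changes of -0.76, -0.79, -1.22 and -1.83 in CON, BMAL1, CHREBP and BOTH (*Padj* = 0.0352, 0.0485, 0.00018 and 1.3e-08). Both genes also differed among the 4 transfected groups (*Padj* = 0.0255 for *Arntl* and 0.0191 for *Mlxipl*, likelihood ratio test).

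Group by group, CON had 800 genes higher and 829 lower than BSA (5.62% and 5.82% of the genes tested), and BMAL1 had 444 and 567 (3.12% and 3.98%). CHREBP had 1000 higher and 982 lower (7.03% and 6.9%), and BOTH 1441 and 1387 (10.1% and 9.75%). With libraries scaled by their total counts, the split in BOTH became 1162 higher and 1755 lower. Jointly, 1265 genes were higher and 1281 lower (8.89% and 9%). Among the 4 transfected groups, 1377 of 13883 genes (9.92%) differed by the likelihood ratio test. Of all genes tested, 173 (1.22%) had every transfected library above every BSA library and 322 (2.26%) had every one below. Among the 497 shared genes, 112 of the 182 higher and 243 of the 315 lower had no such overlap, a property close to the rule that chose them. Most of the shared differences were modest. The median joint log2 fold change was 0.46 for the higher and -0.56 for the lower genes, with -0.0031 for all genes tested, and 31 higher and 71 lower genes reached an absolute value of 1. edgeR's quasi-likelihood test placed 442 of the 497 in the same class, 155 higher and 287 lower. Near the threshold, the last genes inside were *Thoc6* (highest of 4 *Padj* 0.0989) and *Arhgap42* (0.0995), and the first outside *Mtcl1* (0.1001) and *A530020G20Rik* (0.1024).

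Acute phase proteins gave the largest falls. Of 25 listed genes 17 were tested, and 9 of these were lower than BSA in all 4 groups and none higher: *Saa3*, *Lcn2*, *Hp*, *Orm1*, *Fgb*, *Apcs*, *Lbp*, *Cp* and *Hpx*. The median joint log2 fold change of the 17 was -0.99. Because these are bulk RNA data, fewer cells that express a gene and less RNA per cell cannot be told apart. The promoters of *Saa3* and *Lcn2*, the genes with the largest falls, are printed from RefSeq (GRCm38.p6) as 250 bases before and 50 after the start of the gene, so that their sequence can be read beside the values. *Saa3* starts within chr7:46715627-46715926 and *Lcn2* within chr2:32387690-32387989, both on the minus strand, and capitals mark matches to the 7 motifs described with the interferon genes.

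Saa3: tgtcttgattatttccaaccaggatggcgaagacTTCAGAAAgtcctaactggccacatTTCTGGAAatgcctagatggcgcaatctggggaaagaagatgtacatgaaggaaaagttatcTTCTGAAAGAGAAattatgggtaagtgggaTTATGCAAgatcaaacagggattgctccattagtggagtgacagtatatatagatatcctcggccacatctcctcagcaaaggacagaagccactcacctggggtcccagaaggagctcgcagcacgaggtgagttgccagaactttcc

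Lcn2: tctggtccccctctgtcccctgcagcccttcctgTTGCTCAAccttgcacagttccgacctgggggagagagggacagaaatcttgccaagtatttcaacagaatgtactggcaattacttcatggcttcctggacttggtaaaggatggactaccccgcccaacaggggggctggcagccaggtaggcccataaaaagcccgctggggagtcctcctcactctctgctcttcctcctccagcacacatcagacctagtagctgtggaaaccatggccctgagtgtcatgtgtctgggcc

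*Saa3* encodes serum amyloid A3, an inducible acute phase apolipoprotein. It measured 8255, 8055, 8394 and 7839 normalized counts in BSA, against a lowest, median and highest of 107, 165 and 233 in the 16 transfected libraries. Every transfected library was far below every BSA library, with a joint fall of 5.63 ± 0.08 (SE) on the log2 scale, or 49.4-fold. *Saa3* still differed among the transfected groups (*Padj* = 0.00025, likelihood ratio test), with means of 126, 153, 185 and 209 in CON, BMAL1, CHREBP and BOTH. The printed *Saa3* promoter held 4 matches to the C/EBP letters, at positions -216, -191, -129 and -99 from the start, and 1 match to the ISRE letters at -125 that overlaps the C/EBP match at -129.

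*Lcn2* encodes lipocalin 2, which binds bacterial siderophores and so withholds iron. Its BSA values were 3363, 6275, 4684 and 3712, and the transfected libraries ran from 47.4 through a median of 79.4 to 243. Again no library of one kind reached the other, the joint log2 fold change was -5.52 ± 0.31 (*Padj* = 5.83e-69, 46-fold), and no difference among the transfected groups passed the test (*Padj* = 0.286). Its printed promoter held 1 match to the C/EBP letters, at -216 on the other strand.

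Haptoglobin (*Hp*), which binds free hemoglobin, measured 95, 110, 99.2 and 81.3 in BSA and 0 to 12.3 in the transfected libraries, a joint log2 fold change of -4.17 ± 0.27 (*Padj* = 6.95e-52). *Orm1*, the drug-binding glycoprotein orosomucoid, measured 88.1, 120, 99.2 and 130 in BSA and 4.11 to 19 after transfection, with a joint value of -3.21 ± 0.22 (*Padj* = 9.01e-46). Both genes were separated completely between BSA and transfected libraries. The fibrinogen β chain gene *Fgb* had a joint log2 fold change of -1.67 (*Padj* = 5.27e-11) and the serum amyloid P gene *Apcs* of -0.66 (*Padj* = 1.39e-10). The other members of the list moved less, with -0.43 for the lipopolysaccharide-binding protein gene *Lbp*, -0.37 for ceruloplasmin (*Cp*) and -0.35 for hemopexin (*Hpx*). *Crp*, the C-reactive protein gene and the most highly counted list gene that was not shared, had a joint log2 fold change of 0.15 (*Padj* = 0.0883).

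**Figure D1:**
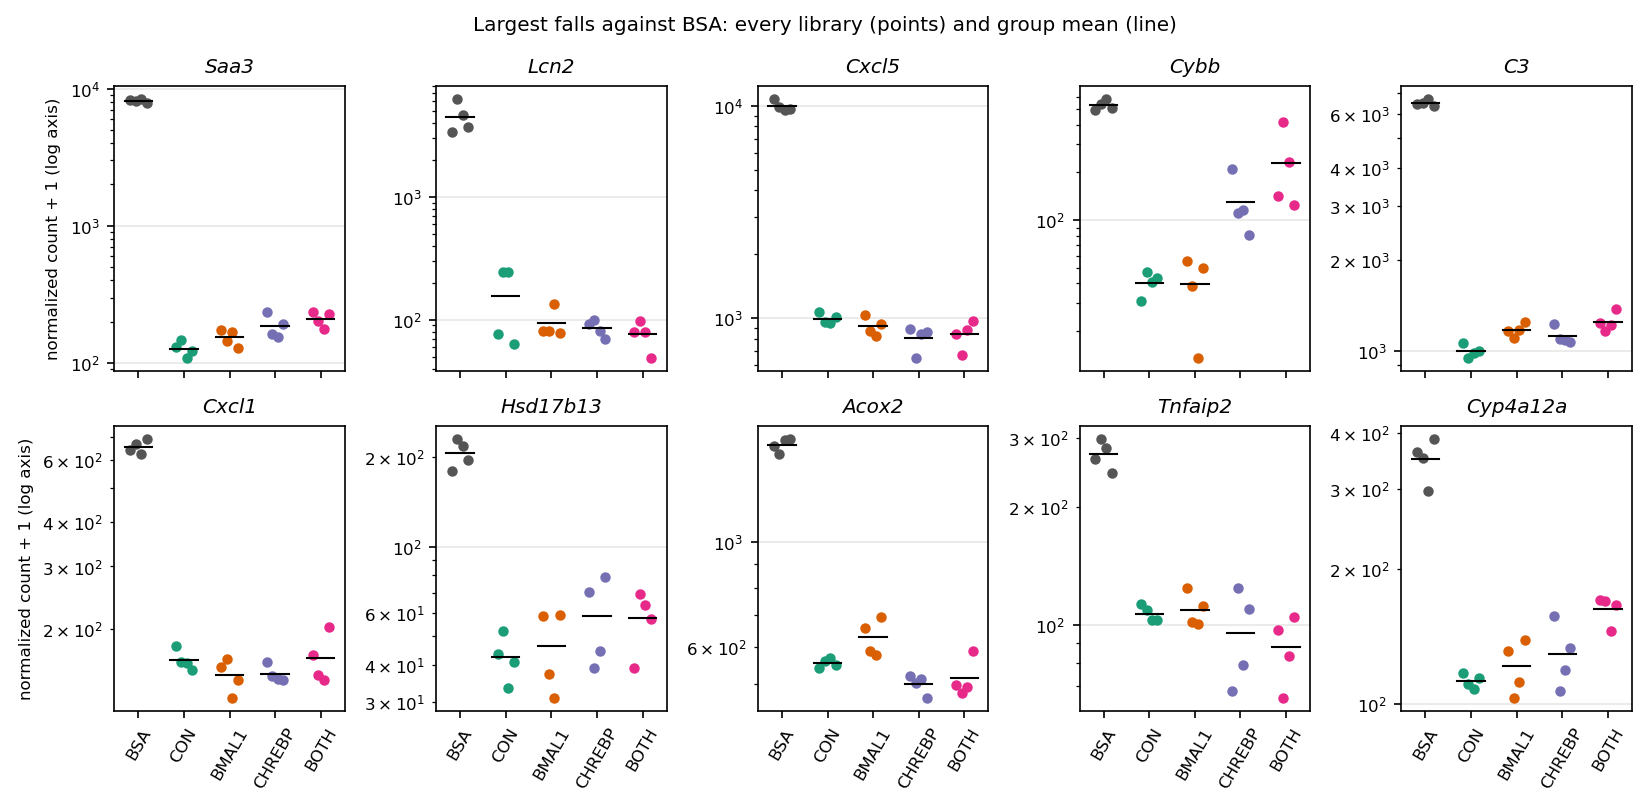
Normalized count + 1 on a log axis for the 10 genes with the largest falls, with a point for each of the 4 libraries of BSA, CON, BMAL1, CHREBP and BOTH and a line at each group mean. In every panel all 16 transfected libraries lie below the 4 BSA libraries, as the choice required. *Cybb* is the gene whose transfected libraries spread most on this axis, from 12.5 to 416.

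Complement was lower at 3 of 17 tested genes and higher at none of them in all 4 groups, with a median joint log2 fold change of -0.43. *C3*, the component on which all complement pathways meet, measured 6450, 6508, 6714 and 6384 in BSA, and 947, 1133 and 1372 were the lowest, median and highest of the transfected libraries. The groups did not overlap, and *C3* fell by 2.53 ± 0.05 on the log2 scale (5.76-fold). It also varied slightly among the transfected groups, with log2 fold changes against BSA from -2.70 in CON to -2.38 in BOTH (*Padj* = 0.00196 among the groups). *C8g*, a subunit of the membrane attack complex, had a joint value of -0.98 ± 0.25 (*Padj* = 0.000986). *Cfi*, a protease that cleaves C3b, was not shared and had a joint log2 fold change of 0.23 ± 0.05 (*Padj* = 5.98e-05).

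Of 14 tested inflammatory chemokines and cytokines, 9 were lower and 1, *Ccl5*, was higher in all 4 groups. The median joint log2 fold change of the 14 was -0.84. *Cxcl5*, *Cxcl3*, *Cxcl1* and *Cxcl2* encode neutrophil attractants that bind CXCR2. *Cxcl5* measured 10772, 9910, 9555 and 9701 in BSA, and its transfected libraries ran from 644 through a median of 884 to 1061. The joint log2 fold change of *Cxcl5* was -3.50 ± 0.08, an 11.3-fold difference, and its 4 group values lay between -3.63 and -3.33.

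*Cxcl1* measured 639, 666, 626 and 690 in BSA and 126, 153 and 201 as the lowest, median and highest after transfection. Its joint log2 fold change was -2.08 ± 0.08 (*Padj* = 3.32e-148), with no difference among the transfected groups that passed the test (*Padj* = 0.83). *Cxcl3* fell by 2.12 ± 0.20 (*Padj* = 8.46e-25) and *Cxcl2* by 1.41 ± 0.29 (*Padj* = 3.02e-05). These genes lie next to each other. On chromosome 5 (GRCm38), *Cxcl5* (chr5:90759360-90761624), *Ppbp* (chr5:90768518-90770063), *Cxcl3* (chr5:90786103-90789600), *Cxcl1* (chr5:90891241-90893115) and *Cxcl2* (chr5:90903871-90905938) were all lower in all 4 groups, and formed, with 1 other, the longest runs of shared genes, of 5 genes each, spaced within 200000 bases. *Ppbp*, the platelet basic protein gene, was in no list and had a joint log2 fold change of -1.32 ± 0.13. Chemokines that attract other cells also fell. *Ccl20*, the CCR6 ligand, fell by 1.39 ± 0.06 on the joint log2 scale, and the monocyte attractants *Ccl7* and *Ccl2* by 1.09 and 0.78. These 3 genes differed among the transfected groups (*Padj* = 5.09e-08, 2.14e-07 and 6.93e-15), with *Ccl2* means of 6270, 5827, 7099 and 9278 in CON, BMAL1, CHREBP and BOTH against 12054 in BSA. The scavenger receptor chemokine *Cxcl16* and the growth factor gene *Tgfb1* had joint values of -0.90 and -0.68.

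Of 18 genes of NF-kB subunits and feedback, 6 were lower and 0 higher in all 4 groups, and 13 were lower jointly, with a median joint log2 fold change of -0.28. edgeR counted 4 shared genes. *Tnfaip2*, a gene induced by tumor necrosis factor, measured 265, 298, 282 and 244 in BSA and 64.1, 102 and 123 as the lowest, median and highest after transfection. It fell by 1.47 ± 0.12 without overlap (*Padj* = 1.06e-31). The inhibitors of NF-kB *Nfkbia* and *Nfkbie*, themselves NF-kB targets, had joint log2 fold changes of -0.61 ± 0.08 and -0.68 ± 0.13. The adhesion molecule gene *Icam1* had -0.55 ± 0.08, and *Tnip1* and *Nfkb2* had -0.35 and -0.27. *Zc3h12a*, which encodes an RNase that degrades cytokine mRNAs, *Cebpd* and *Cd14*, the lipopolysaccharide co-receptor gene, were outside the lists and chosen after their values were seen, and fell by 1.17, 0.75 and 0.55 on the joint log2 scale.

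*Cybb* was the sole shared gene among 5 tested NADPH oxidase subunits. It encodes gp91phox, the catalytic subunit of the superoxide-producing oxidase of phagocytes. The BSA libraries held 496, 535, 579 and 509 normalized counts, CON 29.9, 46.3, 39.9 and 42.1, BMAL1 54.8, 37.5, 12.5 and 48.9, CHREBP 209, 110, 115 and 80.3, and BOTH 142, 416, 233 and 124. *Cybb* was below BSA in all 16 libraries, most so in CON and BMAL1, with log2 fold changes of -3.74, -3.79, -2.05 and -1.21 in CON, BMAL1, CHREBP and BOTH. The groups differed among themselves (*Padj* = 5.61e-08, likelihood ratio test). The summed level of 10 macrophage markers was 0.963 to 3.08 CPM in BSA and 1.56 to 3.79 CPM in the transfected libraries, and their part in the result was not tested.

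The interferon response moved the other way and varied most. All 40 listed genes were tested. Jointly 40 were higher than BSA, with 36 called in CON, 40 each in CHREBP and in BOTH, but 14 in BMAL1, so that the 14 shared genes were the 14 called in BMAL1. None was lower in any of the 4 groups. The median log2 fold change of the list was 3.25, 1.07, 6.26 and 7.04 in CON, BMAL1, CHREBP and BOTH, and 4.55 jointly. edgeR counted 7 shared genes in place of 14. Leaving out 1 library at a time gave 11 to 19, the 19 being without CON replicate 1. That library stood apart in these genes. The list summed to 496 to 523 CPM in the BSA libraries, to 643, 2187, 2231 and 1370 CPM in CON replicates 1 to 4, and in BMAL1 it reached 676 to 866 CPM. It was 10591 to 18059 CPM in BOTH, and CHREBP lay at 5873 to 11578 CPM. All 16 transfected libraries were above all 4 BSA libraries in this sum, and all 40 genes differed among the transfected groups by the likelihood ratio test.

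The promoters of *Ifi44* and *Oas1a*, the genes with the largest rises, are printed in the same way. They lie in chr3:151749861-151750160 and chr5:120907476-120907775, both on the minus strand.

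Ifi44: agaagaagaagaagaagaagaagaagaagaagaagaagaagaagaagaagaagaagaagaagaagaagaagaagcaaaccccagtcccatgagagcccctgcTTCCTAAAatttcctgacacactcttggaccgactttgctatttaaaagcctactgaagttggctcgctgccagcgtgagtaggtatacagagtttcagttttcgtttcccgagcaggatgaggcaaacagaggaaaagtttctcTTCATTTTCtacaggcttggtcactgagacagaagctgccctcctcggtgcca

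Oas1a: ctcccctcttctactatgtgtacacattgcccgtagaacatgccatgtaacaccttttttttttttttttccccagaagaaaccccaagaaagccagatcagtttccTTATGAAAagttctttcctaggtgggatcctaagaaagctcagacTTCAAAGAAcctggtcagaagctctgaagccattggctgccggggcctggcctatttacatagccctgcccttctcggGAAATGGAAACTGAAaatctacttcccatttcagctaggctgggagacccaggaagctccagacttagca

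*Ifi44*, an interferon-induced gene of the cytosol, had 0.863, 0, 0 and 0 normalized counts in BSA and a lowest, median and highest of 5.48, 209 and 1348 in the transfected libraries. With 1 count in all BSA libraries together and 5505 in the transfected ones, the ratio was 1334, with a 95% counting interval of 239 to 52691. Group means were 56.6, 8.04, 441 and 855 in CON, BMAL1, CHREBP and BOTH, so every group was above BSA but BMAL1 only by a few counts. *Oas1a* encodes an oligoadenylate synthetase that is activated by double-stranded RNA and signals to RNase L. It had 1 count in the BSA libraries and 2692 in the transfected ones, a ratio of 652 (interval 117 to 25771). Its transfected libraries ran from 1.85 through a median of 88.1 to 609. The *Oas1a* group means were 17.6, 6.06, 215 and 427 in CON, BMAL1, CHREBP and BOTH. The 2 ratios pool the counts of all transfected libraries, while the joint fold of the fit was 370 for *Ifi44* and 180 for *Oas1a*. The intervals cover counting error alone. *Oas1a* has near-identical neighbours such as *Oas1g*, which could share its reads, and the same holds for *Apol9b*, *Trim30a* and *Ifit1*, which have close copies too.

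The letters searched on both strands were GAAANNGAA for the ISRE, TTNNGNAA for C/EBP, GGGNNTTCC for NF-kB, TTCNNNGAA for STAT factors, TGANTCA for AP-1, TGATGNAA for the C/EBP-ATF composite and CACGTG for the E-box. In the *Ifi44* promoter the ISRE letters matched at -3 on the other strand and the C/EBP letters at -148 on the other strand. The *Oas1a* promoter matched the ISRE letters at -20 and -14, which overlap, the STAT letters at -98 and the C/EBP letters at -143. RefSeq promoters were found for 375 of the 497 genes. Of 12 shared interferon-list genes with a promoter, 7 (58.3%) held the ISRE letters, against 8.57% of all 27025 promoters of this length, 10.9% for all higher and 7.98% for all lower shared genes. Of the same 12, 5 (41.7%) held the AP-1 letters and 5 the C/EBP letters, 1 (8.33%) each the NF-kB and STAT letters, and 0 the other motifs. The AP-1 letters were in 15.3% of the promoters of higher and 9.66% of those of lower genes, with 7.93% for all, and the NF-kB letters in 8.03% and 8.82%, with 5.72% for all. The C/EBP letters were in 32.8% and 33.6%, below the 40.7% of all promoters. The STAT letters were in 5.84% and 9.66% (8.47% of all), the E-box in 10.9% and 10.1% (7.24%) and the C/EBP-ATF letters in 1.46% and 2.94% (4.06%). The set of all promoters was not limited to the genes tested, and base composition was not matched. These are letter matches and no measure of binding.

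*Ifit1*, which binds foreign RNA that lacks cap methylation, had BSA values of 40.6, 52.6, 81.9 and 34.2 and transfected values from 362 through a median of 6079 to 28028. It rose without overlap in all 4 groups, by log2 fold changes of 5.34, 3.18, 7.85 and 8.67 in CON, BMAL1, CHREBP and BOTH (joint *Padj* = 5.46e-57). *Usp18*, the protease that removes ISG15 and dampens the interferon receptor, measured 7.77, 14.6, 5.46 and 8.56 in BSA and 35.3, 1323 and 7397 as the lowest, median and highest after transfection. Its log2 fold changes were 5.34, 2.55, 8.21 and 9.19 in the same order. *Cxcl10*, a T-cell attractant, measured 13, 20.5, 26.4 and 15.7 in BSA and 55.2, 1519 and 15763 after transfection, with log2 fold changes of 4.23, 2.58, 7.78 and 8.96. In each of these genes the order of the group means was BMAL1, CON, CHREBP and BOTH from low to high.

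*Ccl5*, another T-cell attractant, had nearly the same mean in CON and BMAL1, 59 and 56.2. It measured 4.32, 2.92, 0.911 and 2.85 in BSA, the transfected libraries ran from 31.7 to 609, and the log2 fold changes were 4.42, 4.35, 6.32 and 7.34 in CON, BMAL1, CHREBP and BOTH. *Trim30a*, a modulator of innate signaling, had a BMAL1 mean of only 8.40 against 1196 in BOTH, and at 7.14 the widest range of the 4 log2 fold changes of any gene named by size. Its BMAL1 call was close to the threshold (*Padj* = 0.0926, Wald test). The lowest transfected library of *Trim30a*, CON replicate 1, measured 2.72, against 1.95 in the highest BSA library. *Oasl2*, *Rtp4* and *Apol9b* rose jointly by 6.11, 4.95 and 6.52 on the log2 scale. In a fit that took the 16 transfected libraries as 1 group, these values were 7.32, 5.96 and 7.61. The fold itself, not its log2, moved upward by over 1.5 times in 9 of the 10 plotted rises, all but *Ccl5*. *Apol9b* had 3 counts in BSA, a ratio of pooled counts of 203 with an interval of 69.4 to 986, beside a joint fold of 91.7. *Rtp4* overlaps *Gm45338* on its own strand and *Masp1* on the other, and *Cxcl10* overlaps *Art3* on the other strand. The antiviral gene *Rsad2* and the regulators *Irf7* and *Irf9* had joint values of 6.05, 4.96 and 1.69. *Isg15* was not among the shared genes. It had 0 counts in BSA and was at least 36.6-fold higher in the transfected libraries pooled, taking 3 counts over the BSA group as the floor.

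**Figure D2:**
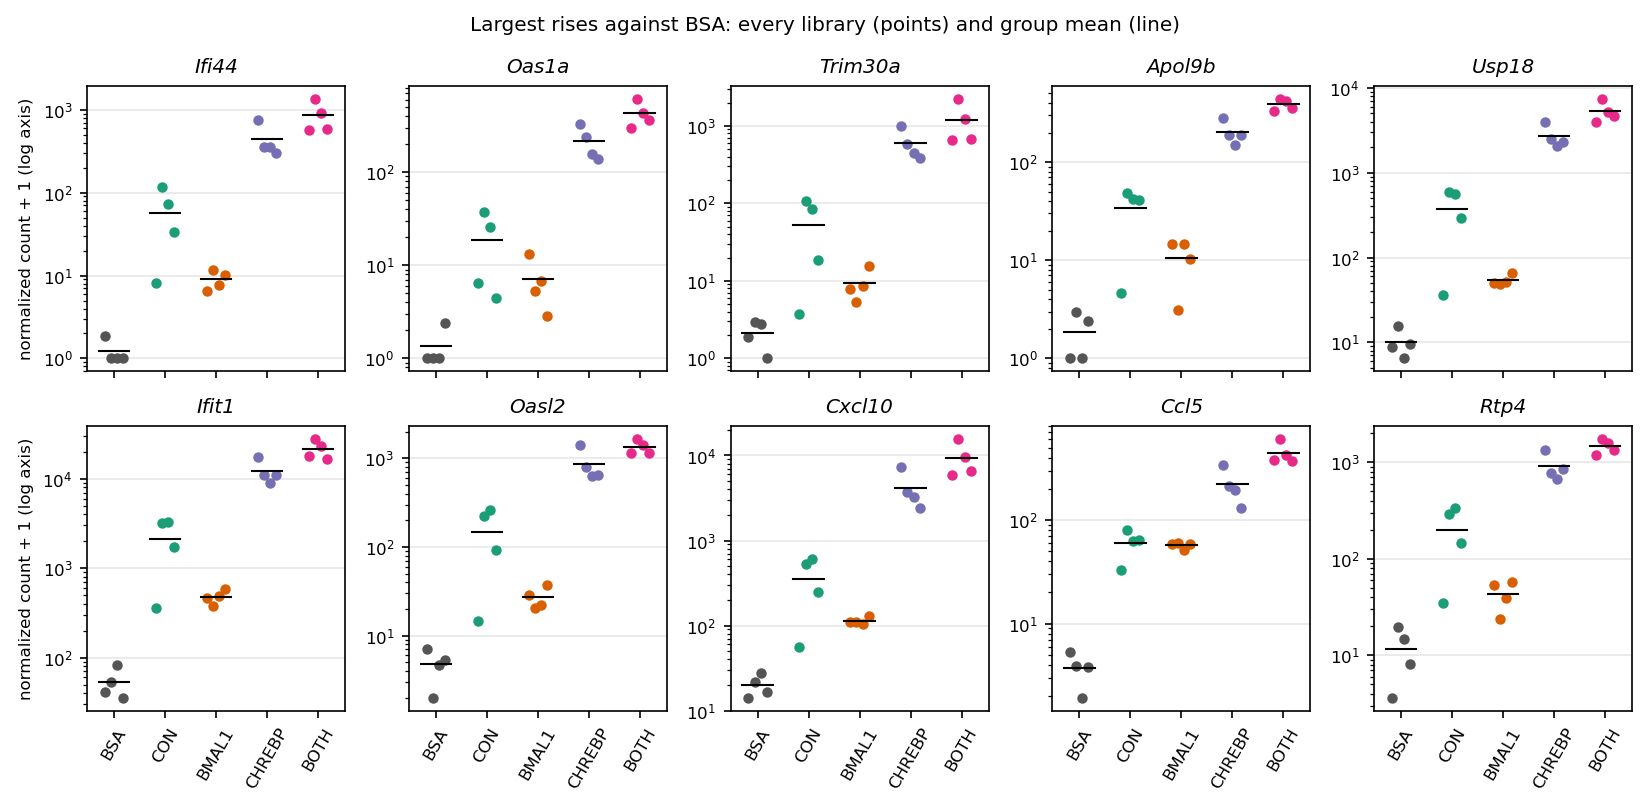
Normalized count + 1 on a log axis for the 10 genes with the largest rises, with a point per library and a line at each group mean. BSA is lowest in every panel, as the choice required. BMAL1 is nearest to it and BOTH is highest, as for *Ifit1* with means of 477 in BMAL1 and 21328 in BOTH.

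MHC class I antigen presentation had 0 shared genes of 15 tested, although 14 were higher jointly. The calls were 5, 0, 15 and 15 in CON, BMAL1, CHREBP and BOTH, and all 15 genes differed among the transfected groups. *B2m*, the invariant light chain, had log2 fold changes of 0.29, 0.13, 1.03 and 1.43 in CON, BMAL1, CHREBP and BOTH.

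Of the 497 shared genes, 114 (22.9%) also differed among the 4 transfected groups, 49 of the 182 higher (26.9%) and 65 of the 315 lower (20.6%), beside 9.92% of all genes tested for this. Of the 49 higher genes that varied, 32 were highest in BOTH and 14 in CON, and 31 were lowest in BMAL1. Of the 65 lower genes that varied, 36 were lowest in BOTH and 29 were highest in BMAL1. The median range of the 4 log2 fold changes was 0.21 for the shared genes and 0.29 for all genes tested. The shared genes were also counted more highly, with a median of mean normalized counts of 438 against 139 for all genes tested. The part of count depth in these shares and ranges was not tested. Outside the lists, *Dtx3l*, *Ano2* and *Gadd45g* were chosen after their values were seen and varied in the order of the interferon genes, with log2 fold changes in CON, BMAL1, CHREBP and BOTH of 1.45, 0.83, 3.18 and 4.03 for the ubiquitin ligase gene *Dtx3l*, 0.69, 0.45, 1.84 and 2.32 for the chloride channel gene *Ano2*, and 0.91, 0.73, 1.12 and 1.65 for the stress-induced gene *Gadd45g*.

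**Figure D3:**
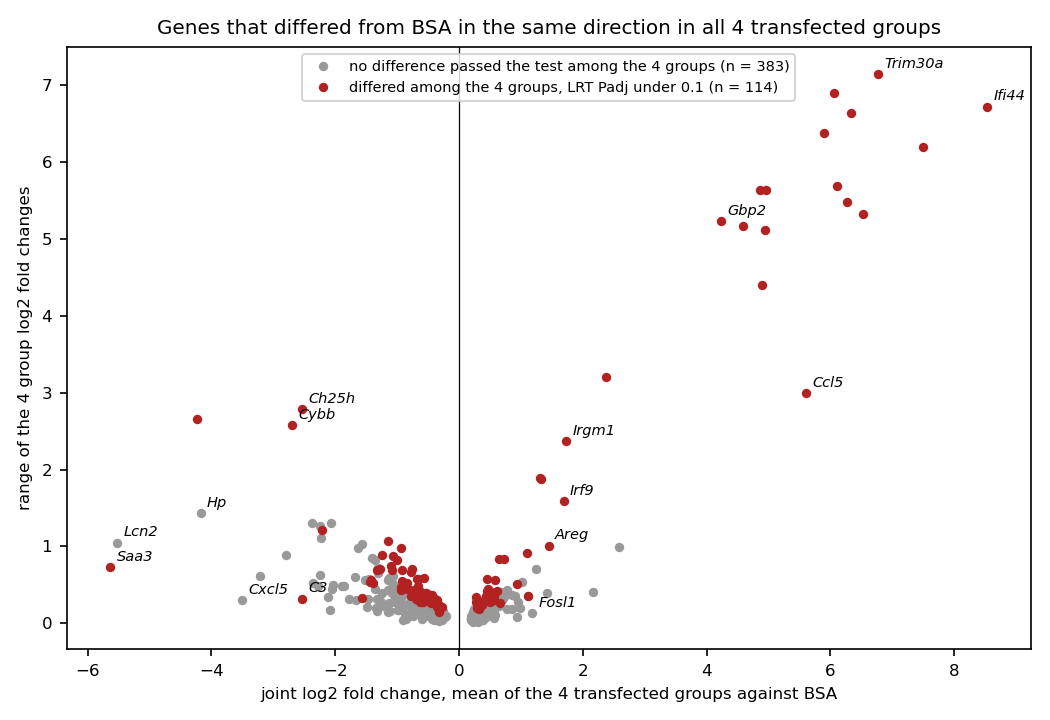
Joint log2 fold change against BSA (x axis) and range of the 4 group log2 fold changes (y axis) for the 497 shared genes, with the 114 that differed among the transfected groups in red. Interferon genes fill the upper right, up to a range of 7.14 for *Trim30a*, and the ranges of large falls run from 0.30 for *Cxcl5* through 1.05 for *Lcn2* to 2.58 for *Cybb*. Fitted values of genes with few BSA counts, such as *Ifi44*, are not bounds.

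Some shared genes were nearly equal in all 4 groups. The narrowest range among the 100 genes with the largest joint changes was 0.04, in *Ctsc*, the cathepsin C gene. It measured 1526, 1477, 1647 and 1643 in BSA and 710, 831 and 1036 as the lowest, median and highest after transfection, a joint log2 fold change of -0.91 ± 0.07. Next in this order came *Denn2b* (-0.86), the nuclear receptor-interacting protein gene *Nrip2* (-0.87), the kinase gene *Styk1* (0.93) and the membrane-bound transcription factor gene *Creb3l1* (-0.75), with ranges of 0.06 to 0.09. That none of the 5 overlapped between BSA and transfected libraries follows from this choice.

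Of 26 tested genes of cholesterol synthesis and uptake, 4 were higher and 0 lower in all 4 groups, and 11 were higher jointly, with a median joint log2 fold change of 0.18. *Sqle*, which encodes squalene epoxidase, measured 490, 421, 527 and 565 in BSA and 600, 685 and 779 as the lowest, median and highest after transfection. It rose without overlap by 0.47 ± 0.08 on the joint log2 scale (*Padj* = 2.00e-07). The sterol isomerase gene *Ebp* measured 2357, 2313, 2358 and 2391 in BSA and 2626, 2904 and 3337 after transfection, and rose without overlap by 0.32 ± 0.04 (*Padj* = 7.90e-13).

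Genes that handle fatty acids moved in both directions. *Fads2*, a desaturase of polyunsaturated fatty acids, and *Me1*, malic enzyme, were higher (joint 0.59 ± 0.10 and 0.25 ± 0.05), while *Dgat2*, which makes triglyceride, and *Mlxipl* were lower (-0.55 ± 0.10 and -1.15). These were the 4 shared of 19 tested synthesis genes, whose median joint log2 fold change was -0.02. *Mlxipl* is the esiRNA target in CHREBP and BOTH, and its log2 fold changes were -0.76 in CON and -0.79 in BMAL1. Of 27 tested genes of fatty acid oxidation and PPAR targets, 3 were higher and 1 lower. *Cpt1a*, which admits fatty acids to mitochondria, measured 1614, 1910, 1820 and 1691 in BSA and 2019, 2178 and 2325 as the lowest, median and highest after transfection. *Cpt1a* rose by 0.30 ± 0.05 without overlap, with group values that ranged over only 0.02. The acyl-CoA thioesterase genes *Acot1* and *Acot2* rose by 0.43 ± 0.05 and 0.75 ± 0.17. These 2 genes are close copies of each other, and reads could have been assigned between them.

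On lipid droplets, the coat protein gene *Plin2* was higher, with 2924, 2985, 2871 and 2698 in BSA and 3187, 3572 and 3821 as the lowest, median and highest after transfection (joint 0.29 ± 0.04, *Padj* = 5.09e-11). *Hsd17b13*, a droplet-bound dehydrogenase, measured 179, 230, 217 and 195 in BSA and 29.9, 47.4 and 78.1 after transfection, and fell by 2.05 ± 0.17 (*Padj* = 1.92e-31). *G0s2*, which inhibits adipose triglyceride lipase, fell by 0.69 ± 0.06 and overlaps *Lamb3* on the other strand. In these 3 genes BSA and transfected libraries did not overlap.

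Among the other falls chosen by count and lack of overlap, *Acox2* encodes the peroxisomal oxidase of branched-chain acids and bile acid precursors. It measured 1600, 1540, 1646 and 1658 in BSA and 466, 543 and 693 as the lowest, median and highest after transfection. *Acox2* fell by 1.56 ± 0.06 on the joint log2 scale (*Padj* = 4.06e-164) without overlap. *Cyp4a12a*, a fatty acid ω-hydroxylase, measured 362, 351, 296 and 388 in BSA and 102 to 169 after transfection (joint -1.43 ± 0.10, *Padj* = 2.14e-46), though its close copy *Cyp4a12b* could share its reads.

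Of 28 tested genes of antioxidant defense and glutathione use, 8 were lower and 3 higher in all 4 groups, or 6 and 3 by edgeR, and the median joint log2 fold change was -0.15. *Mgst1*, the microsomal glutathione transferase gene, measured 1988, 1787, 1864 and 1977 in BSA and 719, 848 and 1049 as the lowest, median and highest after transfection. It fell by 1.13 ± 0.06 without overlap (*Padj* = 2.66e-73). The cytosolic transferase genes *Gsta4*, *Gstm1* and *Gstp1* fell by 0.74 ± 0.08, 0.55 ± 0.07 and 0.54 ± 0.07. Reads of the *Gstm* and *Gsta* families can be hard to assign between members. Mitochondrial superoxide dismutase (*Sod2*) and catalase (*Cat*) fell by 0.45 and 0.38, and *Gsta3* and the peroxiredoxin gene *Prdx6* by 0.28 and 0.21. The 3 higher genes were *Gclc*, the catalytic subunit of the first enzyme of glutathione synthesis, the thioredoxin gene *Txn1* and the stress-induced *Osgin1*, at 0.23, 0.20 and 0.28.

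Hepatocyte secreted proteins had 4 lower and 0 higher of 28 tested, with 3 by edgeR and a median joint value of -0.26. *Trf*, the iron carrier transferrin, measured 8812, 9686, 10313 and 10015 in BSA and 5111, 6267 and 7124 as the lowest, median and highest after transfection (joint -0.62 ± 0.06). *Apoe* fell by 0.53 ± 0.07, the protease inhibitor gene *Ambp* by 0.32 ± 0.04 and albumin (*Alb*) by 0.44 ± 0.11. The albumin libraries overlapped, with 181 to 275 in BSA and 132 to 199 after transfection. *Alb*, *Trf* and 6 further hepatocyte markers summed to 1656 to 1930 CPM in BSA and 1097 to 1547 CPM after transfection. Markers of bile duct cells, counted mostly in the osteopontin gene *Spp1*, summed to 2438 to 2627 and 1921 to 2271 CPM, and *Spp1* was itself shared (joint -0.51 ± 0.04). Of the 5 tested markers of bile duct cells, 1 was lower and 1 higher jointly, with a median of 0.06. The higher one was *Krt19* (joint 0.30 ± 0.08, *Padj* = 0.00105), with log2 fold changes of 0.42, 0.41, 0.29 and 0.08 in CON, BMAL1, CHREBP and BOTH. Stellate cell and fibroblast markers summed to at most 3.68 CPM in any library and neutrophil markers to at most 3.64 CPM, and the part of any marker list in the results was not tested. Of 28 lysosome and autophagy genes, the cathepsin genes *Ctsz* and *Ctsb* fell by 0.57 ± 0.06 and 0.32 ± 0.05. With scaling by total counts 4 genes of that list were shared. Of 13 LXR targets and lipid transporters, *Ch25h*, which makes 25-hydroxycholesterol, fell by 2.53 ± 0.33 and the transporter gene *Abca8b* by 0.73 ± 0.08.

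Of 28 tested genes of DNA replication and mitosis, 6 were higher in all 4 groups: *Cdc20*, *Ccna2*, *Ccnb1*, *Birc5*, *Top2a* and *Aurkb*. The list did not move as a whole, since BOTH had 9 genes higher and 6 lower and 17 of the 28 differed among the transfected groups. The number was 3 without BSA replicate 1 or without BSA replicate 2, 4 with scaling by total counts and 5 by edgeR. *Ccnb1*, the mitotic cyclin B1 gene, measured 268, 287, 248 and 394 in BSA and 336, 428 and 490 as the lowest, median and highest after transfection, so that 1 BSA library lay among the transfected ones. The joint log2 fold change was 0.50 ± 0.09 for *Ccnb1*, 0.57 ± 0.10 for *Cdc20*, an activator of the anaphase promoting complex, and 0.52 ± 0.09 for *Ccna2*, cyclin A2. All 3 were highest against BSA in CON, at 0.67, 0.78 and 0.73, and lowest in BOTH, at 0.39, 0.41 and 0.33, and *Ccna2* differed among the groups (*Padj* = 0.0119).

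Of 27 tested actin, YAP and SRF genes, 5 were higher in all 4 groups, with a list median of 0.10 and 1 gene lower jointly. The 5 became 3 when any of CON replicate 1, CON replicate 3, BMAL1 replicate 1 or BMAL1 replicate 3 was left out. *Ccn2*, a matricellular YAP target, measured 5169, 5459, 5460 and 6066 in BSA and 6763, 7480 and 8602 as the lowest, median and highest after transfection, without overlap (joint 0.44 ± 0.05, *Padj* = 6.03e-16). The actin-binding calponin genes *Cnn1* and *Cnn2* rose by 0.49 ± 0.11 and 0.38 ± 0.05, the focal adhesion gene *Zyx* by 0.29 ± 0.05 and *Actb* by 0.26 ± 0.05. Of 12 tested EGF receptor ligands and receptors, 2 were higher. *Areg*, the amphiregulin gene, measured 41.4, 36, 34.6 and 28.5 in BSA and 58.1, 102 and 156 after transfection. It rose by 1.45 ± 0.17 (*Padj* = 2.61e-15) without overlap, most in BOTH (1.93) and least in BMAL1 (0.91), and its receptor gene *Egfr* rose by 0.31 ± 0.05. *Areg* lies on chromosome 5 (chr5:91139599-91148432), beyond the chemokine genes that fell.

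Of 31 immediate early and KLF factor genes, 4 were higher and 1, *Klf9*, lower. The higher count was 2 without BSA replicate 3 or without BMAL1 replicate 4, and *Klf9* was not shared by edgeR or with either other scaling. *Fosl1*, an AP-1 subunit gene, measured 95, 86.7, 85.6 and 75.6 in BSA and 152, 201 and 228 as the lowest, median and highest after transfection. It rose by 1.18 ± 0.12 without overlap (*Padj* = 2.22e-20), and its 4 group values ranged over 0.13. The ETS factor gene *Etv4* rose by 1.24 ± 0.29, and the MAP kinase phosphatase genes *Dusp5* and *Dusp6* by 0.64 ± 0.08 and 0.54 ± 0.06. *Dusp5* increased more in BOTH (1.16) than in BMAL1 (0.32), with *Padj* = 8.56e-19 among the groups. Of 10 keratin and EMP genes 4 were higher. *Emp1*, an epithelial membrane protein gene, measured 591, 612, 751 and 592 in BSA and 1070, 1372 and 1652 after transfection (joint 1.11 ± 0.07), and the keratin genes *Krt20*, *Krt18* and *Krt8* rose by 0.94, 0.27 and 0.25. *Krt18* and *Hsp90ab1* have processed copies elsewhere in the genome that could share reads.

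Among 25 tested collagen, laminin and integrin genes, 4 were lower and 1 higher, and the lower count was 2 without BSA replicate 2. The collagen-binding integrin gene *Itga2* fell by 1.06 ± 0.13, the laminin gene *Lamb3* by 0.66 ± 0.09, *Itgav* by 0.45 ± 0.08 and *Col18a1* by 0.23 ± 0.05, while *Itga3*, which encodes a laminin receptor subunit, rose by 0.36 ± 0.07. *Itga2* was lowest against BSA in BMAL1, at -1.53, and nearest in CON, at -0.65 (*Padj* = 0.000218 among the groups).

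**Figure D4:**
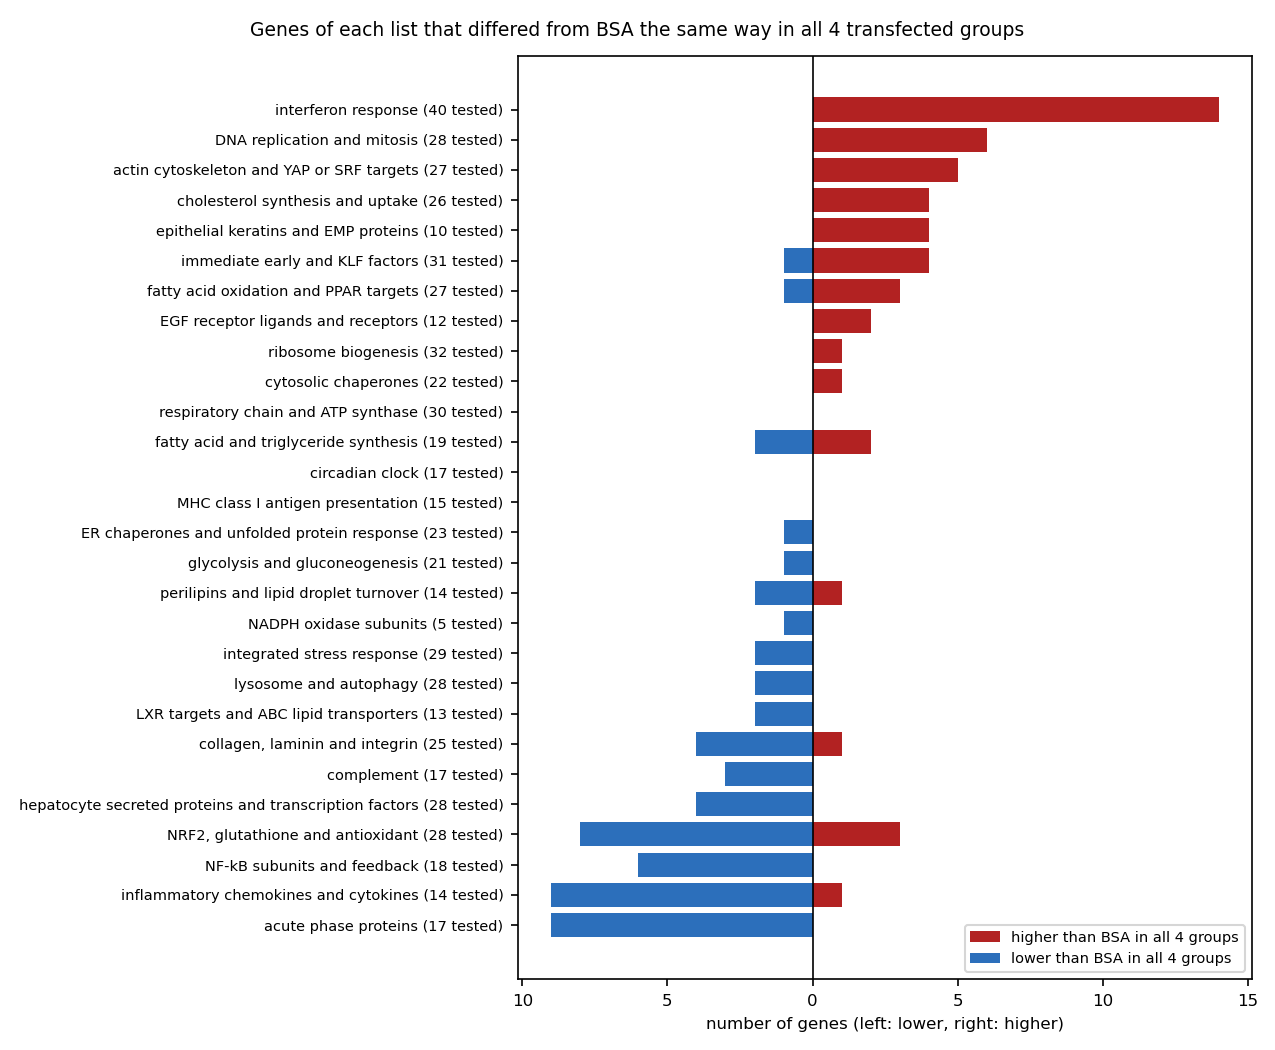
Number of genes in each of 28 lists that were higher (right) or lower (left) than BSA in all 4 groups, with the number tested beside each name. The longest bars are 14 higher interferon-response genes, and 9 lower acute phase genes and 9 lower chemokine and cytokine genes.

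**Figure D5:**
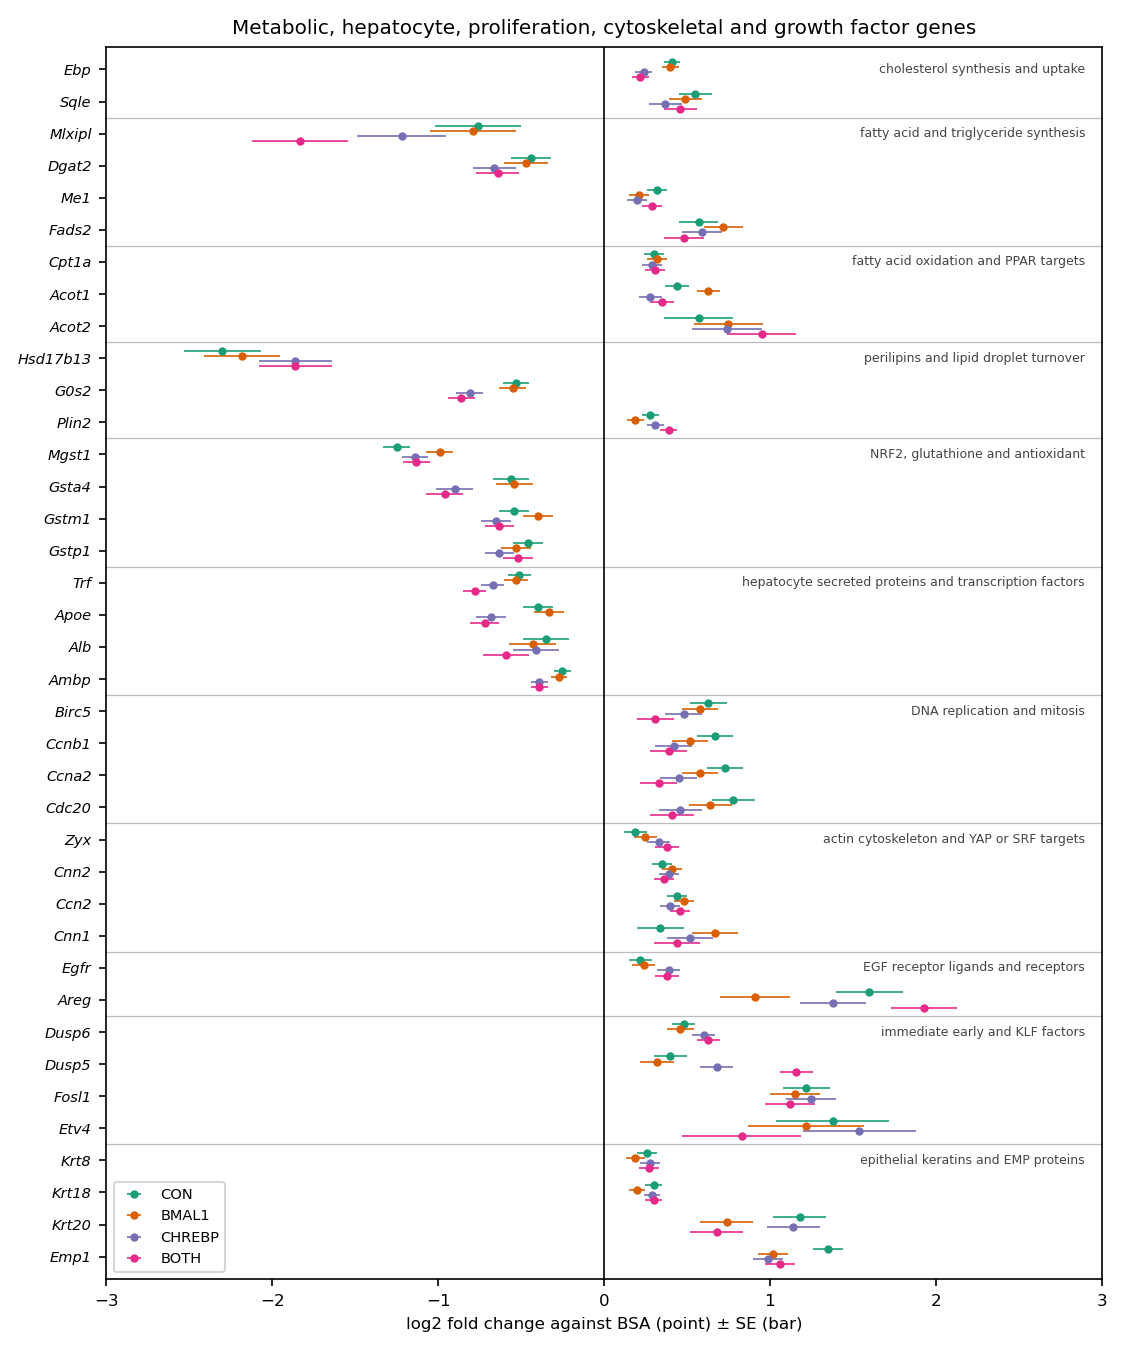
Log2 fold change against BSA with its SE for 38 genes of 11 lists in CON, BMAL1, CHREBP and BOTH. The 4 points of a gene lie on the same side of 0, closest together in *Cpt1a* and spread widest in *Mlxipl* and *Areg*. *Mlxipl* is the esiRNA target in CHREBP and BOTH.

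Other gene groups moved little in common. Of 29 integrated stress response genes, *Nupr1* and *Cebpb* were lower (joint -0.84 ± 0.14 and -0.65 ± 0.06), and 16 of the 29 differed among the transfected groups. *Xbp1*, the transcription factor of the unfolded protein response, was the single shared gene of 23 in its list, with 2864, 3064, 3000 and 3131 in BSA and 2052, 2225 and 2581 as the lowest, median and highest after transfection (joint -0.43 ± 0.05). *Txnip*, a thioredoxin inhibitor induced by glucose through CHREBP, was the single shared gene of 21 in glycolysis and gluconeogenesis (joint -0.58 ± 0.08). The chaperone gene *Hsp90ab1* rose by 0.20 ± 0.04 and the nucleolar methyltransferase gene *Fbl* by 0.31 ± 0.06. Of 32 ribosome biogenesis genes 18 were higher jointly, but BMAL1 had 1 higher and 1 lower. None of 17 circadian clock genes was shared. Jointly, 6 clock genes were lower, among them *Arntl*, *Per3*, *Rora*, *Dbp* and *Bhlhe40*, with values from -0.74 for *Per3* to -0.25 for *Bhlhe40* among these 5. *Arntl* is the esiRNA target in BMAL1 and BOTH. Its log2 fold changes of -0.12 in CON and -0.47 in CHREBP did not pass the threshold. None of 30 genes of the respiratory chain and ATP synthase was shared, and 3 of the 30 were lower jointly, near the 9% of all genes tested.

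Most shared genes, all but 110 of 497, were in none of the lists. Among those chosen after their values were seen, *Vnn3*, a pantetheinase gene, measured 61.3 to 78.3 in BSA and 0 to 18.7 after transfection, a joint fall of 4.23 ± 0.37 on the log2 scale. The gene of insulin-like growth factor binding protein 5 (*Igfbp5*) fell by 2.80, the ligand gene *Wnt6* by 2.35, the epithelial ETS factor gene *Ehf* by 2.22 and the heparan sulfate proteoglycan gene *Gpc4* by 2.23. Genes of hepatocyte products were among them, with -1.42 for angiotensinogen (*Agt*) and -1.77 for *Serpinf1*. *Elf3*, *Bmp4* and the invariant chain gene *Cd74* had joint values of -0.92, -0.94 and -2.06. Among higher genes outside the lists, the cornified envelope gene *Sprr1a* had 1.12, the drug transporter gene *Abcb1b* 1.43, the planar polarity gene *Prickle1* 2.17 and the cytokine gene *Il11* 0.53. No BSA library was above 13.7 normalized counts for *Sprr1a*, 11.4 for *Abcb1b* and 5.18 for *Prickle1*.

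By position, 124 of the 497 genes lay within 200000 bases of another shared gene, in 53 clusters, of which 12 held 3 or more genes and 42 held genes of a single direction. No such count was made for all genes tested or for other sets of this size. Whether the shared genes lay closer together than other genes was therefore not tested. On chromosome 2 *Dnm1*, *1110008P14Rik*, *Lcn2*, *Ptges2* and *Slc25a25* were all lower. On chromosome 3 the glutathione transferase genes *Gstm5*, *Gstm2* and *Gstm1* were all lower. On chromosome 19 *Fas* and *Ch25h* were lower near *Ifit1*, which was higher.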

How the data were processed

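RNA was measured by BRB-seq, a 3′ method with sample barcodes, in AML-12 cells. After demultiplexing with BRB-seq tools, the authors used STAR for alignment to mm10 and HTSeq for counts per gene, and the labels also name featureCounts. Their versions, the strand setting and the handling of molecular identifiers are not given in the sources used here. The deposited table holds raw counts for 55487 genes, and its 5 lines of read summaries were dropped. Gene positions came from GENCODE M21 (GRCm38), which held 55227 of the IDs, and promoters from RefSeq.

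The 4 BSA and 16 transfected libraries were fitted together with 5 groups in DESeq2 1.42.0 (R 4.3.3), on the 14232 genes whose counts summed to 25 or more. Wald tests compared each group with BSA, a joint contrast averaged the 4 coefficients, and a likelihood ratio test compared the 16 transfected libraries. The threshold was a Benjamini-Hochberg adjusted p (two-sided) of 0.1, and 1380 genes had no joint adjusted p because of independent filtering. Normalized counts are counts divided by DESeq2 size factors. The labels do not say that replicates were separate cultures, so p-values measure the spread between these samples, which may be technical. Replicate pairs differed by more than sampling noise. At 5399700 to 11237474 counts per library, intervals and floors cover counting error only. The scripts were tested on simulated data. Genes were named by rule as the 10 largest rises and 10 largest falls among non-overlapping shared genes with a mean normalized count from 50 upward, up to 4 shared genes and the most highly counted other gene of each of 28 lists, the esiRNA targets, and the 5 widest and 5 narrowest of the 100 largest changes. These 100 were likewise non-overlapping shared genes with a mean from 50 upward. Some further genes are given by their list counts. The members and lists were chosen with earlier results of these data known. Alternatives were edgeR 4.0.16, TMM and total-count scaling, other filters and thresholds, separate fits, a fit with 2 groups (BSA and transfected), a replicate block and leaving out each library. A few genes of the lists are counted but not reported by name here.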

Additional observations from a re-analysis of the deposited data

Results flagged for a closer look

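Of 110 sets of 4 libraries (22 genes in 5 groups), 7 had a library far from the other 3 by Dixon's test at the 95% level. Chance flags about 1 in 20 groups. These were *Lcn2* in BMAL1 replicate 3 (134 normalized counts), *C3* in CHREBP replicate 1 (1227), *Cyp4a12a* in BOTH replicate 3 (144), *Ifi44* in BSA replicate 1 (0.863) and in CHREBP replicate 1 (755), *Oas1a* in BSA replicate 4 (1.43) and *Ccl5* in BMAL1 replicate 3 (50.2). The BSA values of *Ifi44* and *Oas1a* are a single count each.

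The change against BSA also differed between transfected groups for 17 of the 22 genes by the likelihood ratio test of DESeq2. Among the genes that fell, the adjusted p was 0.00025 for *Saa3*, 5.61e-08 for *Cybb*, 0.00196 for *C3*, 0.00933 for *Acox2* and 0.0162 for *Cyp4a12a*. *Saa3* and *Cybb* were nearest to BSA in BOTH, and *Acox2* was farthest from it in CHREBP. Among the genes that rose, it was 9.88e-19 for *Ifi44*, 3.78e-19 for *Oas1a*, 5.26e-13 for *Trim30a*, 1.64e-18 for *Apol9b*, 9.07e-22 for *Usp18*, 2.65e-22 for *Ifit1*, 6.78e-15 for *Oasl2*, 5.27e-23 for *Cxcl10*, 7.39e-27 for *Ccl5* and 7.60e-17 for *Rtp4*. All of these 10 genes were highest in BOTH and lowest in BMAL1 among the transfected groups. For the esiRNA targets it was 0.0255 for *Arntl* and 0.0191 for *Mlxipl*.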

How the results depend on the processing

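With an absolute log2 fold change of at least 0.32 asked for in addition, 511 genes were higher in CON, 666 in CHREBP, 104 in all 4 groups and 633 jointly, and 756 were lower jointly. The other 379 recomputed counts and main comparisons stayed within 1.5 times the reported value or kept direction and side of the threshold. The joint fall of *Arntl* missed the threshold without BSA replicate 3 (-0.54, *Padj* = 0.113), and the other 637 recomputed values of single genes kept direction and side. A fit with 2 groups, BSA and transfected, moved the joint fold itself by over 1.5 times in 9 of 22 genes. On the log2 scale these moves were, for example, from 8.53 to 10.10 for *Ifi44*, 5.89 to 7.54 for *Cxcl10*, 6.77 to 8.61 for *Trim30a* and 6.26 to 7.43 for *Ifit1*. Leaving out each library in turn gave 152 to 208 shared higher and 264 to 352 shared lower genes, 959 to 1398 and 1005 to 1420 joint calls, and 1173 to 1668 genes that differed among the transfected groups. Of the 497 shared genes, 383 to 477 were kept, fewest without BSA replicate 2, and 442 were kept by edgeR, 445 by separate fits of 8 libraries, 494 with TMM and 474 with total-count scaling, 477 without the count filter, 493 with a filter of 1 CPM in 4 libraries, 484 without independent filtering, 392 at an adjusted p of 0.05 and 336 with the added fold threshold. The replicate number as a block gave 181 shared higher and 315 lower genes and kept 474. Same-numbered libraries of different groups did not deviate together (mean correlation 0.01 over 40 pairs, 5 of them above 0.1), so the numbers were not taken to pair the libraries. Genes near the floor of 3 counts, among them *Ifi44*, *Oas1a* and *Isg15* in BSA, have folds limited by depth.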
